A study of Mus musculus with 22 samples.

Results

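The miRNAs made from the imprinted Mest and Gnas loci were followed in round spermatids (RS), the haploid cells that leave meiosis and mature into sperm. They are the products of the hairpins of miR-335, miR-296 and miR-298, chosen by name, and they comprised 5 of the 1966 mature names of the count table: mmu-miR-335-5p, mmu-miR-335-3p, mmu-miR-296-5p, mmu-miR-296-3p and mmu-miR-298-5p, written below without the prefix for mouse. RS came from the testes of mice of 75 to 85 days of age. The 22 libraries fall into 4 groups and 2 experimental batches, called a and b as in the sample titles. Batch a holds 5 libraries of wild-type (WT) RS and 5 of RS from GRTH KO mice, which lack GRTH/DDX25, an RNA helicase of the testis that is needed to complete spermatid development. Batch b holds 6 WT libraries and 6 from GRTH KI mice, which carry a GRTH with a changed residue and, per the study, lack its phosphorylated form. Both alleles act in the whole animal, so the RS of the mutant groups developed in mutant testes. Per the study, RS were enriched by settling through a gradient of albumin rather than sorted by a marker. The study checked the purity of the RS fractions by nuclear staining under a microscope. KO was read against the WT of batch a and KI against the WT of batch b.

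An imprinted gene is expressed mainly from the chromosome inherited from 1 parent, a state set by DNA methylation in the germ line. Mest, a gene expressed from the paternal copy, carries miR-335 within an intron. The Gnas locus makes several overlapping transcripts with different parental origins, and miR-296 and miR-298 lie beside its antisense transcript Nespas. A miRNA hairpin is cut into a 5p and a 3p product, and the product loaded into an Argonaute protein pairs with target mRNAs mainly through bases 2 to 8, the seed. The study chose miR-335 among the miRNAs it named from these libraries, so the direction of its change here is not independent evidence.

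All 5 of the 5 members had a mature sequence in RefSeq (build GRCm38.p6). The sequences are shown because they tell which products were counted and whether any could share targets or reads, with the seed in capitals and written 5′ to 3′. miR-298-3p, the opposite product of the miR-298 hairpin, is added to complete the pairs.
miR-335-5p: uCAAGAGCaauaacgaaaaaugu
miR-335-3p: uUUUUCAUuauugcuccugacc
miR-296-5p: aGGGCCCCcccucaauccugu
miR-296-3p: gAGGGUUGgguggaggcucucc
miR-298-5p: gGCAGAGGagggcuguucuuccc
miR-298-3p: gAGGAACUagccuucucucagcuu
The 5 members had 5 distinct seeds, and no other name among the 1679 mature names of RefSeq shared the seed of a member. The count table holds 1966 names, and those absent from RefSeq, such as miR-328-3p and miR-468-3p, were not searched. miR-335-5p is rich in A and U, with a GC content of 30.4%, and 1.61% of the RefSeq names were lower. miR-296-5p, miR-296-3p and miR-298-5p had GC contents of 66.7%, 68.2% and 65.2%, against a median of 52.2% over the RefSeq names.

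The hairpin of miR-335 lies on the plus strand at chr6:30741299-30741396 of GRCm38. It is inside an intron of Mest (chr6:30723547-30748465) in 7 of its 11 annotated transcripts, with the intron at chr6:30740825-30742140, and in an exon of 0 of them. Its mature products are at chr6:30741314-30741336 for miR-335-5p and chr6:30741354-30741375 for miR-335-3p. The hairpins of miR-296 and miR-298 lie on the minus strand at chr2:174267047-174267125 and chr2:174267504-174267585, with 378 bases between them. GENCODE vM21 gives neither of them a host gene. The nearest end of Nespas (chr2:174281237-174295436) is 14.1 kb from miR-296 and 13.7 kb from miR-298, and that of Gnas is 17.2 kb and 16.7 kb away. The hairpins are printed below with both mature products in capitals, since the change of each product is compared within its hairpin further on.
Mir335: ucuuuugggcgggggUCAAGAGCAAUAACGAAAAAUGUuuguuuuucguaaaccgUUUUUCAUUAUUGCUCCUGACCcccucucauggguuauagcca
Mir296: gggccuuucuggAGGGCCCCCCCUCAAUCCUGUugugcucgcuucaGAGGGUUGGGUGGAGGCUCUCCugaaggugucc
Mir298: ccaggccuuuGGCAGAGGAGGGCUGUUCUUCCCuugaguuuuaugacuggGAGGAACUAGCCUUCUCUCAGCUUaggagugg

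Each library held between 559957 and 3239357 counts, with 590 to 745 names detected. The range was 870913 to 1081333 in the WT of batch a, 559957 to 881323 in KO, 2067322 to 3239357 in the WT of batch b and 2107461 to 3101145 in KI. A level of 3 counts, the least taken as detected, stands for 0.926 CPM (counts scaled to a common library total) in the deepest library and 5.36 CPM in the shallowest, for counting error only. As a check for germ cells, the germ cell miRNA miR-34c-5p had 9128031 counts over all libraries. The 8 germ cell miRNAs listed summed to 208588 to 371084 CPM per library. The list covers both RS and spermatocytes, the cells still in meiosis, so it does not tell these apart.

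miR-335-5p, miR-296-5p, miR-296-3p and miR-298-5p were detected in all 22 libraries at 3 counts or more, and miR-335-3p was at the limit of detection. miR-335-5p had 1265 counts in all, with 7 to 125 per library. miR-296-5p had 1225 counts, with 23 to 94 per library. Its partner miR-296-3p had 738 counts, with 13 to 62 per library. miR-298-5p had 660 counts, with 16 to 41 per library. miR-335-3p had 85 counts, was seen in 19 of 22 libraries and reached 3 counts in 13 of them. Counts this low leave a large counting error: a member with 7 to 41 counts cannot be measured in 1 library as finely as an abundant miRNA. Among the 844 names with counts in the WT of batch a, miR-335-5p ranked 234 and held 0.00421% of all counts there. miR-296-5p ranked 232, miR-296-3p 255 and miR-298-5p 256. Only 334 names had enough counts to be tested in KO against this WT, so the 4 detected members were not among its abundant miRNAs. Each member has 1 locus in the table and shares its counts with 0 other names. These 4 members passed the filter on low counts in every comparison, and miR-335-3p did not.

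**Figure D1:**
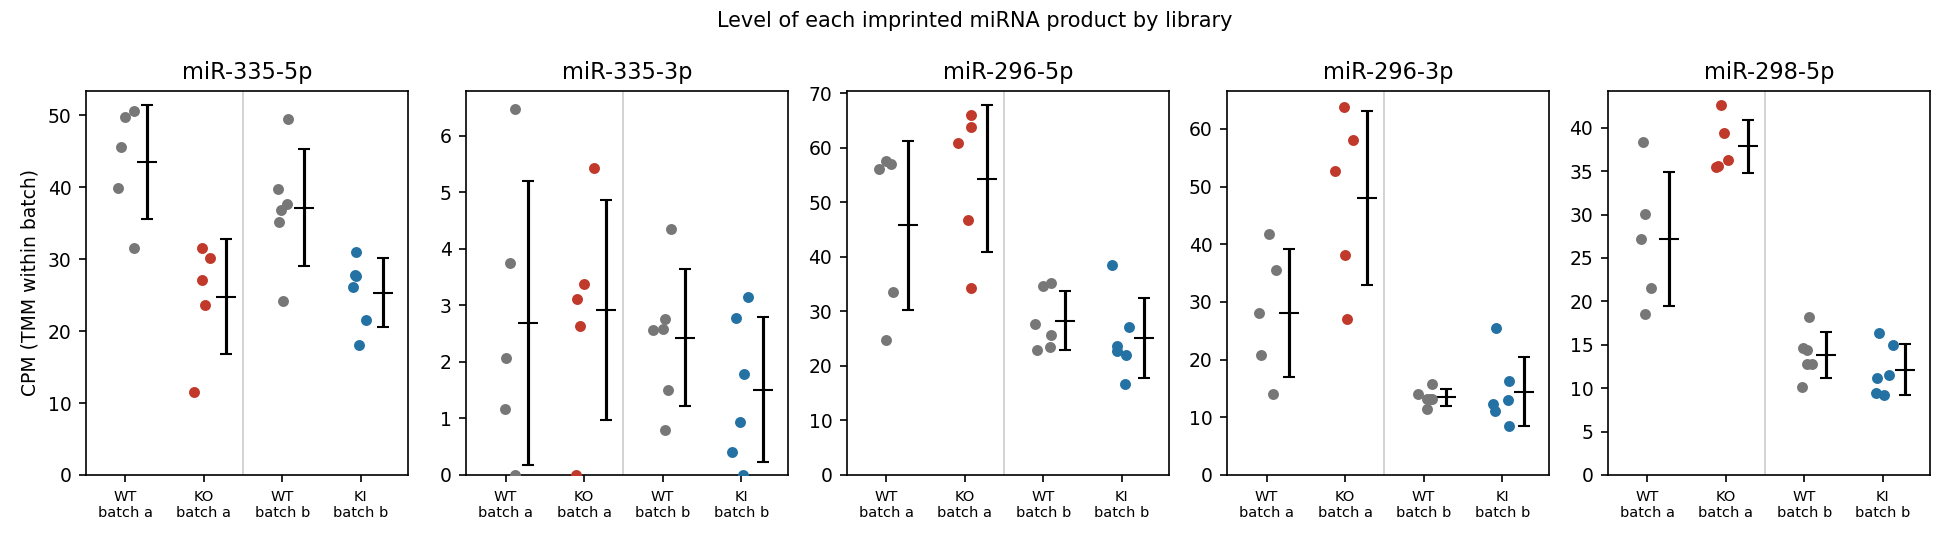
Level of each member in CPM (scaled by TMM within a batch, linear axis from 0) for each of the 22 libraries, by group, with the mean and SD as a black bar beside the points. The KO libraries of miR-335-5p sit at 11.5 to 31.6 CPM and those of its WT at 31.6 to 50.5, while miR-298-5p sits at 35.5 to 42.6 in KO and at 18.5 to 38.3 in its WT.

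miR-335-5p, the Mest product, fell in RS of both mutants. In the WT of batch a its levels were 49.8, 31.6, 39.9, 50.5 and 45.6 CPM, with a mean of 43.5 ± 7.90 (SD, n = 5). In KO they were 31.6, 30.1, 27.2, 23.7 and 11.5 CPM, with a mean of 24.8 ± 8.01 (SD, n = 5). All 5 KO libraries were below the WT median, and the highest KO library and the lowest WT library were nearly equal. KO replicate 5 is the lowest, with 7 counts.
The fitted change was -0.78 on the log2 scale, or 0.582-fold (SE 0.23, 95% interval -1.29 to -0.27, edgeR adjusted p = 0.0234). Without KO replicate 5 it was -0.62 (edgeR adjusted p = 0.0269). With CPM by library total the 2 groups overlapped, from 11.3 to 32.9 in KO against 29.1 to 49.9 in WT. Of the 334 miRNAs tested, 41.9% were called in either direction at an adjusted p under 0.1, 20.7% as lower, and 11.4% were lower with no overlap of the groups.

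In batch b the levels of miR-335-5p in WT were 37.6, 24.2, 35.1, 49.5, 39.8 and 36.8 CPM (WT mean 37.2 ± 8.14, SD, n = 6). In KI they were 26.1, 18.03, 27.8, 27.7, 21.5 and 31.0 CPM, with a mean of 25.4 ± 4.75 (SD, n = 6). All 6 KI libraries were below the WT median and 2 were below the lowest WT library, so the groups overlapped. The change was -0.55 on the log2 scale, or 0.681-fold (SE 0.17, 95% interval -0.91 to -0.20, edgeR adjusted p = 0.0214). Among the 387 miRNAs tested for KI, 38% were called, 18.1% as higher and 19.9% as lower. The KO effect minus the KI effect was -0.24 (SE 0.29, 95% interval -0.83 to 0.35, edgeR adjusted p = 0.69), so a difference between the alleles was not detected, and the interval still allows one of either sign.
In bulk RS, fewer cells of a type and less of a miRNA per cell cannot be told apart.

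miR-335-3p, the other Mest product, was too rare to follow. Its level was 0 to 6.47 CPM in the WT of batch a, 0 to 5.43 in KO, 0.798 to 4.35 in the WT of batch b and 0 to 3.15 in KI. The groups overlapped in both batches. With no filter on low counts, the fitted change was 0.07 (SE 0.67, edgeR adjusted p = 0.955) in KO and -0.65 (SE 0.49, edgeR adjusted p = 0.447) in KI. Neither passed the test, and both standard errors were larger than those of miR-335-5p.

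The products of the Gnas locus did not share the fall of miR-335-5p in KO, where 2 of the 3 rose. miR-296-3p was at 20.9, 41.7, 14.02, 35.6 and 28.004 CPM in the WT of batch a (mean 28.03 ± 11.1, SD, n = 5). In KO it was at 38.1, 58.1, 63.8, 27.1 and 52.7 CPM (mean 48.0 ± 15.1, SD, n = 5). In KO 3 libraries were above the highest WT library, and KO replicate 4 was below the WT median.
The change was 0.78 on the log2 scale, or 1.72-fold (SE 0.30, 95% interval 0.14 to 1.43, edgeR adjusted p = 0.0619). The call was lost without WT replicate 1 (0.70, edgeR adjusted p = 0.121), WT replicate 3 (0.61, 0.12), KO replicate 2 (0.70, 0.128) or KO replicate 3 (0.66, 0.14), with the direction the same in each.

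miR-298-5p was at 18.5, 38.3, 21.6, 27.1 and 30.1 CPM in the WT of batch a, with a mean of 27.1 ± 7.73 (SD, n = 5). In KO it was at 35.5, 42.6, 39.4, 35.5 and 36.3 CPM, with a mean of 37.8 ± 3.07 (SD, n = 5). All 5 KO libraries were above the WT median, and 4 of the 5 WT libraries were below the lowest KO library. WT replicate 2 overlapped with KO.
The change was 0.48 on the log2 scale, or 1.40-fold (SE 0.20, 95% interval 0.05 to 0.92, edgeR adjusted p = 0.0843). It missed the threshold without WT replicate 1 (0.38, edgeR adjusted p = 0.163), WT replicate 3 (0.41, 0.174), WT replicate 4 (0.49, 0.108), KO replicate 2 (0.44, 0.145) or KO replicate 3 (0.47, 0.129), and with no filter on low counts (0.43, 0.322).

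miR-296-5p did not pass the test in KO. Its levels were 33.6, 57.5, 24.8, 57.1 and 56.0 CPM in WT (mean 45.8 ± 15.5, SD, n = 5) and 34.2, 46.7, 63.8, 60.9 and 65.9 CPM in KO (mean 54.3 ± 13.5, SD, n = 5). Of the KO libraries, 3 were above the highest WT library and 2 were below the WT median. The change was 0.23 (SE 0.26, 95% interval -0.34 to 0.79, edgeR adjusted p = 0.514). Thus 3 of the 4 members tested were called in KO, 2 higher and 1 lower, beside 21.3% higher and 20.7% lower over all miRNAs tested. The median over these 4 members was 0.36, and over all miRNAs tested it was 0.01.

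In KI none of the 3 Gnas products that were tested passed the threshold. miR-296-5p was at 22.9, 27.7, 23.5, 35.2, 25.7 and 34.6 CPM in the WT of batch b and at 22.7, 38.5, 16.7, 22.1, 27.1 and 23.6 CPM in KI, a change of -0.18 (SE 0.19, 95% interval -0.58 to 0.22, edgeR adjusted p = 0.485). miR-296-3p was at 11.5, 13.1, 13.2, 15.8, 13.1 and 13.98 CPM in WT and at 13.04, 25.4, 8.55, 12.3, 16.4 and 11.1 CPM in KI. Its change was 0.09 (SE 0.22, 95% interval -0.38 to 0.57, edgeR adjusted p = 0.777), and without KI replicate 2, the highest library, it was -0.14 (edgeR adjusted p = 0.543). The KI libraries lay on both sides of the WT range for both products.
miR-298-5p was at 10.1, 18.1, 12.8, 14.6, 12.8 and 14.3 CPM in WT and at 11.5, 16.4, 9.27, 9.46, 14.96 and 11.1 CPM in KI. Its change was -0.19 (SE 0.18, 95% interval -0.58 to 0.19, edgeR adjusted p = 0.434). In KI 1 of the 4 tested members was called, miR-335-5p, beside 38% of all miRNAs tested, and the median over the 4 was -0.19 against 0.00 over all miRNAs tested.

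**Figure D2:**
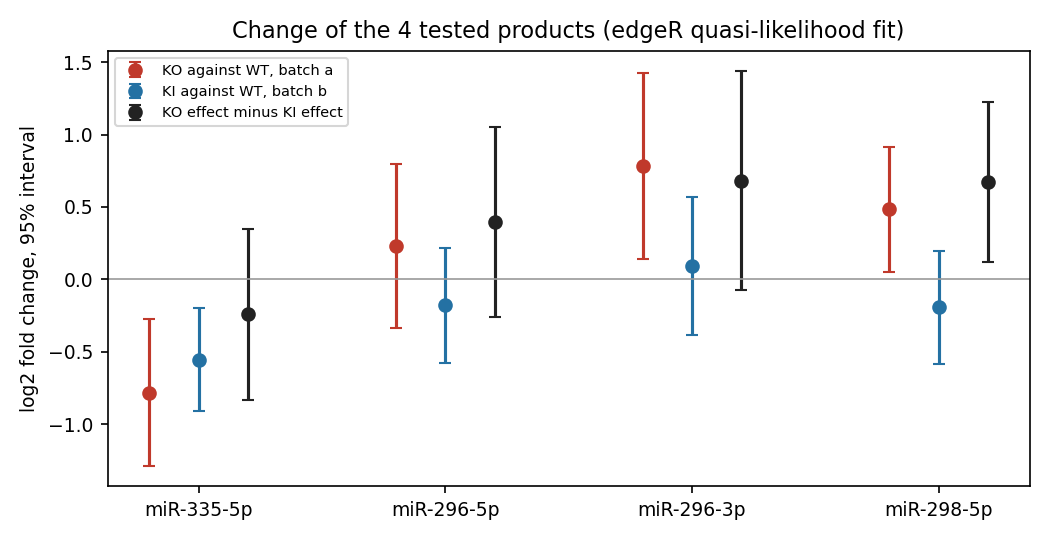
Log2 fold change with its 95% interval from the edgeR fit for the 4 members tested, in KO against WT (red), in KI against WT (blue), and the KO effect minus the KI effect (black). For miR-335-5p both mutant intervals are below 0, at -1.29 to -0.27 and -0.91 to -0.20, and for miR-298-5p the KO interval of 0.05 to 0.92 is above 0 while the KI interval spans 0.

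The difference between the KO and KI effects was tested for each member in a fit of all 4 groups. KO and KI are in different batches, and batch cancels only if its effect is the same in WT and mutant. Whether it is the same was not tested. miR-298-5p had a KO effect larger by 0.67 (SE 0.27, 95% interval 0.12 to 1.23), with an unadjusted edgeR p of 0.0195 and an adjusted p of 0.221. miR-296-3p had a difference of 0.68 (SE 0.37, 95% interval -0.08 to 1.44, edgeR adjusted p = 0.372) and miR-296-5p one of 0.40 (SE 0.32, 95% interval -0.26 to 1.05, edgeR adjusted p = 0.558). None of them passed, and 0% of the 421 miRNAs tested were called by edgeR. At an unadjusted p under 0.05 there were 67 (15.9%), and DESeq2 also called 0. With the replicate number as a block the count was 25, without KI replicate 2 it was 26 and without WT replicate 1 of batch b it was 1, with no member among them. A difference between the alleles was thus not shown for any of the 3 Gnas products.

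The levels in the 4 groups were set side by side as CPM scaled over all libraries together. Genotype and batch cannot be told apart between KO and KI, so their order across batches is a description with no test. miR-335-5p was highest in the WT of batch b (42.3 ± 8.42, SD, n = 6), then in the WT of batch a (37.8 ± 7.05, SD, n = 5), in KI (28.6 ± 5.68, SD, n = 6) and in KO (21.1 ± 6.94, SD, n = 5). The WT groups did not differ beyond their spread (0.12 on the log2 scale for batch b minus batch a, SE 0.17, edgeR adjusted p = 0.596). That sign turned with library size as the only scaling (-0.21), where the median of all miRNAs moved from -0.01 to -0.34, and without WT replicate 4 of batch b (-0.02).
The means of the Gnas products were higher in both groups of batch a than in both groups of batch b. miR-296-5p stood at 46.1 ± 10.9 in KO, 39.8 ± 13.5 in the WT of batch a, 32.3 ± 6.20 in the WT of batch b and 28.2 ± 7.88 in KI (CPM, SD). miR-298-5p stood at 32.2 ± 2.44 in KO, 23.5 ± 6.69 in the WT of batch a, 15.8 ± 3.42 in the WT of batch b and 13.6 ± 3.07 in KI (CPM, SD). miR-296-3p stood at 40.7 ± 12.3, 24.3 ± 9.53, 15.4 ± 1.48 and 16.2 ± 6.42 in the same groups. On the log2 scale the WT of batch b minus the WT of batch a was -0.71 for miR-296-3p (SE 0.22, edgeR adjusted p = 0.0143) and -0.63 for miR-298-5p (SE 0.21, edgeR adjusted p = 0.019), both lower in batch b, and -0.35 for miR-296-5p (SE 0.21, edgeR adjusted p = 0.185). Between the WT groups 56.7% of the 383 miRNAs tested were called.

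Both products of a hairpin come from the same precursor, so their ratio was compared within each library. The 5p product held 94.1% of the miR-335 counts in the WT of batch a (Wilson 95% interval 90.1 to 96.5) and 89.5% (82.2 to 94.0) in KO, and 93.9% (91.7 to 95.5) and 94.3% (91.7 to 96.1) in the WT of batch b and KI. For miR-296 the 5p product held 62.1% (56.9 to 67.0) in the WT of batch a and 51.9% (46.8 to 56.9) in KO. In batch b it held 67.8% (64.0 to 71.3) in WT and 63.5% (59.6 to 67.2) in KI. Single KO libraries ranged from 44.6% to 69.2%, against 58.0% to 66.7% in their WT. The hairpin of miR-298 gave 86.9% to 96.2% of its counts to the 5p product in the 4 groups, and its 3p product had only 69 counts over all libraries.

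The log2 ratio of 5p to 3p counts in KO minus that in WT was -1.19 for miR-335 (two-sided exact permutation p = 0.0952) and -0.52 for miR-296 (exact permutation p = 0.103). In KI it differed from WT by 0.44 for miR-335 (exact permutation p = 0.481) and by -0.22 for miR-296 (exact permutation p = 0.0498). After Benjamini-Hochberg adjustment over the 4 tests these were 0.138, 0.138, 0.481 and 0.138, and none passed 0.1. Of the exact tests that left out 1 library, 1 of 10 passed for miR-335 in KO, without WT replicate 3 (-1.61, adjusted exact p = 0.0996). For miR-296, 1 of 10 passed in KO, without KO replicate 4 (-0.76, 0.0635). In KI 1 of 12 passed for miR-296, without KI replicate 6 (-0.27, 0.0693). miR-335-3p had 0 to 6 counts per library in the WT of batch a and 0 to 4 in KO. The miR-335 ratio in KO thus rests on very few counts and on the 0.5 added to them.

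**Figure D3:**
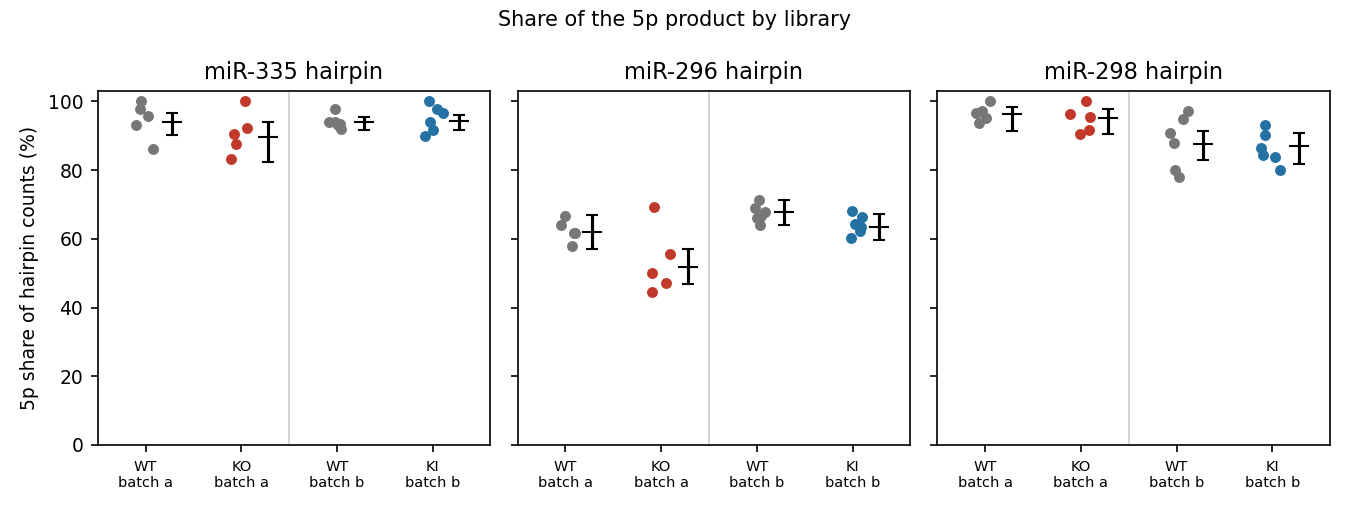
Share of the 5p product among the counts of each hairpin (percent, axis from 0) for each library, by group, with the share of the summed counts and its Wilson 95% interval as a black bar. miR-335 and miR-298 are mostly 5p in every group, and miR-296 gives 62.1% in the WT of batch a and 51.9% in KO.

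Within the Gnas locus the products varied together from library to library. Over the 22 libraries, with each value taken as its deviation from the WT mean of its batch, Pearson's r was 0.745 between miR-296-5p and miR-296-3p (0.670 in batch a and 0.843 in batch b), 0.722 between miR-296-5p and miR-298-5p (0.625 and 0.795), and 0.804 between miR-296-3p and miR-298-5p (0.831 and 0.698). miR-335-5p had an r of -0.318 to miR-296-5p (-0.449 in batch a and -0.000806 in batch b), of -0.504 to miR-296-3p (-0.523 and -0.402) and of -0.457 to miR-298-5p (-0.587 and -0.211). The likeness was not particular to the locus, since names from other loci were closer to each Gnas product. Among 420 other names, miR-296-3p ranked 12 and miR-298-5p 15 in likeness to miR-296-5p. For miR-296-3p, miR-298-5p ranked 7 and miR-296-5p 18. For miR-298-5p, miR-296-3p ranked 18 and miR-296-5p 30. These values are descriptions over libraries that share a batch, a scaling and a genotype effect.

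**Figure D4:**
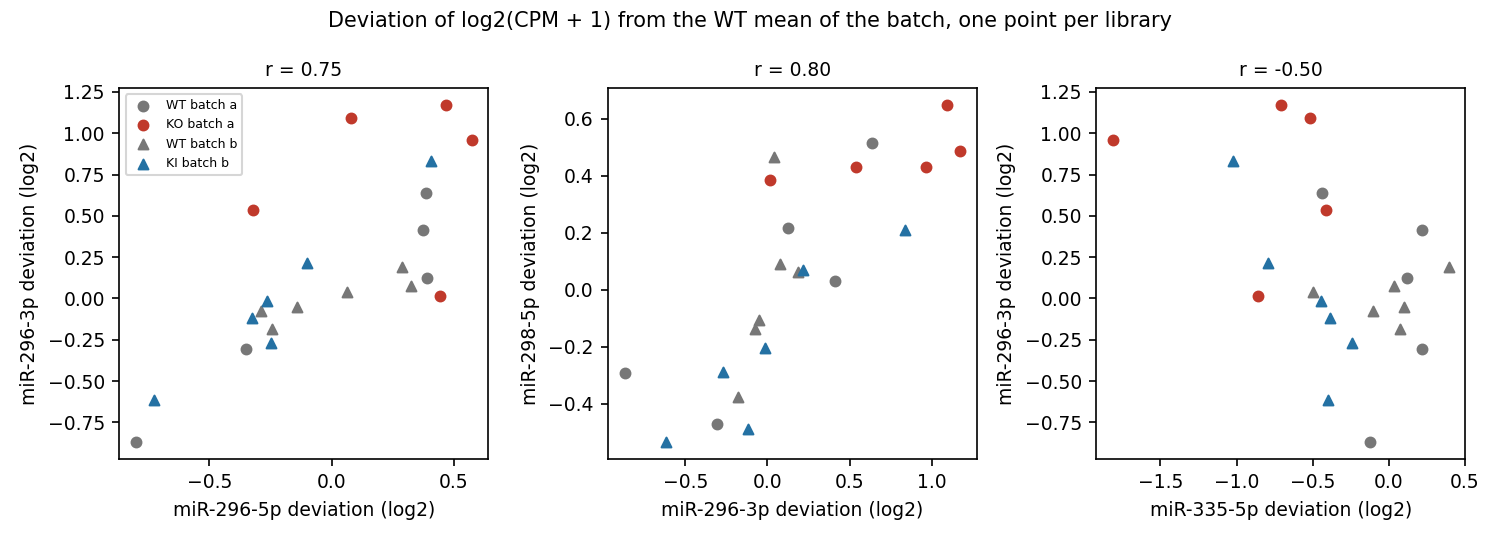
Deviation of log2(CPM + 1) from the WT mean of the batch for pairs of members, 1 point per library, coloured by genotype and shaped by batch. The Gnas products lie along a rising line (r = 0.745 and 0.804), and miR-335-5p against miR-296-3p lies along a falling one (r = -0.504).

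The names most like each member over the same libraries were found among 420 others. For miR-335-5p they were miR-465a-5p (r = 0.823), miR-22-3p (0.789) and the miR-297 products 297c-3p, 297b-3p and 297a-3p (0.783 each). The counts of miR-297b-3p and miR-297c-3p were identical. miR-297a-3p had nearly the same changes as both of them, at -0.61 in KO and -0.23 in KI. The 3 miR-297 names are thus not taken as separate observations. miR-465a-5p, a germ cell miRNA of the X chromosome with close copies whose reads may be split, was lower in both mutants, with changes of -0.47 in KO (edgeR adjusted p = 0.00183) and -0.30 in KI (edgeR adjusted p = 0.00105).
For miR-298-5p the 5 names were miR-7232-3p (0.905), miR-7242-3p (0.891), miR-7229-5p (0.868), miR-7230-3p (0.867) and miR-7214-3p (0.867). miR-296-5p was closest to miR-7214-3p (0.826), miR-468-3p, miR-7242-3p, miR-7217-3p and miR-7233-5p, and miR-296-3p to miR-7229-5p (0.840), miR-7232-3p, miR-5121, miR-328-3p and miR-7242-3p. Names numbered from miR-7210 to miR-7243 made up 4 of 5, 3 of 5 and 5 of 5 of these lists for miR-296-5p, miR-296-3p and miR-298-5p, and 0 of 5 for miR-335-5p. Such names were 31 of the 420 compared.

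Of the 10 names within 1 Mb of miR-335, 6 were tested, all on the opposite strand and 321 kb to 575 kb away. In KO 3 were lower and 0 higher, beside 20.7% lower and 21.3% higher over all miRNAs tested, and in KI 3 were lower and 2 higher, beside 19.9% and 18.1%. miR-96-5p, of the cluster with miR-182 and miR-183 that is known for its role in sensory cells, fell by 0.66 on the log2 scale in KO (edgeR adjusted p = 0.00759) and by 0.53 in KI (edgeR adjusted p = 0.00725). Its neighbours miR-182-5p and miR-183-5p had changes of -0.24 (0.0563) and -0.22 (0.105) in KO and of -0.38 (0.0253) and -0.50 (0.00315) in KI, with the edgeR adjusted p in brackets. miR-29a-3p, of the cluster on the other side, was at 0.16 (0.183) in KO and rose by 0.21 (0.00725) in KI. miR-29b-3p was at -0.17 (0.0843) in KO and 0.06 (0.691) in KI, and miR-29a-5p at 0.33 (0.282) and 0.46 (0.0852). Near miR-296 and miR-298 the table held miR-6340, with 0 counts, and miR-298-3p, with too few counts to test.

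Further imprinted miRNAs were read from lists for the Dlk1-Dio3 locus and for the H19 and Igf2 loci only. Imprinted miRNAs of any other locus were not listed, so these lists do not stand for imprinted miRNAs as a whole. Of the 94 names of the Dlk1-Dio3 locus, a large imprinted miRNA cluster expressed from the maternal chromosome, 8 were tested in KO, with 4 higher, 0 lower and a median of 0.66, beside 21.3% higher and a median of 0.01 over all miRNAs tested. In KI 19 were tested, with 10 higher, 0 lower and a median of 0.66, beside 18.1% higher and a median of 0.00. The largest of its effects in KO was that of miR-409-3p, at 1.03 (edgeR adjusted p = 6.27e-05). Of the 4 products of the H19 and Igf2 loci, 0 were tested in KO, and in KI 1 was, miR-483-3p, at -0.20 (edgeR adjusted p = 0.706).

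Some markers of germ cells and of other cells moved with the genotype and stand beside all of these changes. Their counts are to be read against all miRNAs tested, of which 21.3% were higher and 20.7% lower in KO, and 18.1% and 19.9% in KI. Of the 8 germ cell miRNAs, 6 were lower and 0 higher in KO, and 5 were lower and 0 higher in KI. The list was chosen with earlier results known. The study had already named miR-184 and miR-880 as lower in both mutants, so these counts are not independent evidence. miR-449c-5p, which was not on the list, was higher in KO (0.82, edgeR adjusted p = 0.00889). Of the 5 miRNAs of smooth muscle and stroma, 4 were tested and 4 were higher in both mutants. Their summed level was 736 to 2151 CPM in the WT of batch a, 2107 to 4382 in KO, 1035 to 1816 in the WT of batch b and 1864 to 4241 in KI. Among the 8 miRNAs of blood and immune cells, 3 of the 6 tested were higher in KO and 5 of 6 in KI, with summed levels of 5085 to 6224, 5898 to 7769, 2859 to 3625 and 3595 to 5632 CPM in the same order. For endothelium 1 was tested and 0 were called, and the summed level was 135 to 429 CPM over all libraries. Of the striated muscle miRNAs, 1 of 1 was higher in KO and 0 of 3 were called in KI, while miR-206-3p was at 0 in every library. The summed levels of the muscle miRNAs were 15.1 to 43.6, 28.8 to 174, 43.3 to 659 and 42.2 to 482 CPM in the same order of groups. Between the WT groups, miR-1a-3p was higher in batch b by 5.03 on the log2 scale (edgeR adjusted p = 9.02e-06). The part of any of these cell types in the levels of the members was not tested.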

How the data were processed

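The values deposited are raw counts of reads for each mature miRNA. Per the study and the submitters' processing notes, the authors trimmed adapters with cutadapt 3.4, checked reads with FastQC 0.11.9, aligned them to GRCm38 with Bowtie2 2.4.2 (local mode, several alignments per read), handled files with SAMtools 1.12 and counted by strand on a miRBase annotation with featureCounts of Subread 2.0.1. All 22 libraries were used, with 0 unused sample columns. Depth was 559957 to 3239357 counts, and 3 counts was taken as the floor. The labels do not name separate animals, so p-values measure only the spread between these samples, which may be technical. Wilson intervals and floors cover counting error only, while intervals of fold changes include the spread between libraries.

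The members and lists were chosen with earlier results of these data known. Named were all members, the opposite product of miR-298, names within 1 Mb, names sharing a seed, the 5 names most alike to each member, and the lists. Counts were fitted with edgeR 4.0.16 (R 4.3.3, quasi-likelihood F-test, TMM, filterByExpr), KO and KI each against the WT of their batch, with Benjamini-Hochberg adjustment over all miRNAs tested and a threshold of 0.1. The study used DESeq2, run here as an alternative (1.42.0). Other alternatives were library size or RLE scaling, no filter, a replicate block, a fit of all groups, and leaving out each library. Hairpin ratios used log2((5p + 0.5)/(3p + 0.5)) and a two-sided exact permutation test, with at least 10 counts of each product per group. Wilson intervals were at 95%. No pair of replicates agreed within sampling noise (chi-square per degree of freedom of at least 7.28 over 50 pairs). The fits were tested on simulated data. Sequences are from RefSeq and gene positions from GENCODE vM21. Summaries used scipy 1.17.1, pandas 2.3.3 and numpy 2.4.6 under Python 3.11.15.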

Additional observations from a re-analysis of the deposited data

Results flagged for a closer look

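The level of miR-335-5p in KO replicate 5 stood far from the other KO libraries, at 11.5 CPM (7 counts) against 23.7 to 31.6 CPM. On log2(CPM + 1) it was 3.65 against 4.63 to 5.03, and its gap to the nearest library was 0.71 of the range of the group, just over the critical value for 5 samples. Of the 20 combinations of a member and a group that were screened, 1 was marked in this way, and chance marks about 1. The fall of miR-335-5p in KO kept its call without this library (-0.62, edgeR adjusted p = 0.0269).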

How the results depend on the processing

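miR-335-5p was called as lower in KO in all 10 fits that left out 1 library (edgeR adjusted p 0.0177 to 0.0563) and in all 6 other alternatives, and in KI in all 12 (0.00817 to 0.0476) and all 6. The number of members called in KO was 1 to 3 when 1 library was left out, being 1 without WT replicate 1 or 3 or KO replicate 2 or 3 of batch a, where miR-335-5p stayed. The number of miRNAs called over the whole table stayed within 112 to 153 for KO and 123 to 173 for KI. With library size as the only scaling the calls were 101 higher and 44 lower in KO (71 and 69 with TMM) and 96 and 53 in KI (70 and 77), with medians of 0.13 and 0.09. For the KO effect minus the KI effect the count of 0 ranged from 0 to 26 when 1 library was left out, with 26 without KI replicate 2 and 1 without WT replicate 1 of batch b, and no member was among the calls in any setting.

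The replicate numbers were not treated as pairs, because the labels name nothing shared by a number and the correlation of same-numbered deviations was not over 0.1 in every pair. It ranged from -0.202 to 0.303 over 5 pairs in batch a (mean 0.0509), where 1 of 5 samples was closest to its own number, and from -0.120 to 0.562 over 6 pairs in batch b (mean 0.198, 3 of 6), so some shared variation in batch b was not excluded. With the replicate number as a block the calls were 124 for KO, 165 for KI, 232 for WT between batches and 25 for the difference of the effects, and 3, 1, 3 and 0 members were called.

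miR-296-3p in KI changed sign without KI replicate 2 (-0.14, with -0.14 to 0.21 over the left-out libraries), and miR-335-5p between the WT groups changed sign with library size only (-0.21) and without WT replicate 4 of batch b (-0.016, with -0.016 to 0.18 over the left-out libraries). miR-296-5p between the WT groups passed the threshold with library size only (-0.68), with the block (-0.38) and without WT replicate 3 of batch a (-0.50). The arm ratio ranged over the left-out libraries from -1.61 to -0.78 for miR-335 in KO, -0.76 to -0.39 for miR-296 in KO and -0.27 to -0.17 for miR-296 in KI, passing the threshold at the first value of each. Scaling over all 4 groups, chosen after seeing the data, moved miR-296-3p in the WT of batch b to 15.4 CPM and miR-298-5p in KO to 32.2 CPM. The cause of these shifts was not tested. Depth limits miR-335-3p and miR-298-3p, which could not be fitted under the filter.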
